A study of Mus musculus with 13 samples.

Results

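The 32 genes described here are genes whose RNA comes, in at least some somatic tissues of the mouse, mainly from the maternal or mainly from the paternal chromosome. They were taken by symbol from a fixed list, and all 32 were found among the 55335 genes of the count table, 29 by identifier and version and 3 (*Peg3*, *Rian* and *Gnas*) by identifier alone. By their usual somatic class, 15 are maternally expressed, 16 are paternally expressed and *Gnas* is both, depending on its transcript. The counts do not tell the parental alleles apart, so each value is the sum over both. Germ cells carrying the Oct4-GFP (*Pou5f1*-GFP) transgene were sorted from the ovary pair of single mouse embryos at E17.5, and each of the 13 libraries of 3′ Tag-Seq, which reads the end of polyadenylated RNA, is 1 embryo.

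The 4 groups compared differ in the glucocorticoid receptor gene *Nr3c1* (GR) and in the cross. WT embryos (n = 3, labelled GR WT control) and KO embryos (n = 3, homozygous for a constitutive deletion of GR exon 3 in the whole body) came from GR KO/+ parents, the null allele having been made with a β-actin Cre line, and carried strain labels Tg(Pou5f1-EGFP)2Mnn and Nr3c1tm1.1Jda. In the conditional cross, whose labels add Pou5f1tm1.1(cre/Esr1*)Yseg, cKO embryos (n = 4) were GR flox/flox with the inducible, germ cell specific Oct4CreERT2 allele, and flox embryos (n = 3, labelled GR flox control) were homozygous for the floxed exon 3 and, by the study's methods, without Cre, although their strain label also lists it. The dams of both received 125 μg / g tamoxifen at E10.5. All embryos of both crosses carried Oct4-GFP. Cross, tamoxifen and colony cannot be told apart. The deletion in KO removes GR from all tissues of the embryo and its deletion in cKO depends on the recombination of each germ cell, which these counts do not show: *Nr3c1* was at 44.5 ± 15.3 CPM in WT, 44.5 ± 25.0 in KO, 65.3 ± 33.5 in flox and 52.4 ± 18.1 in cKO (mean ± SD), and a count per gene cannot show the loss of an exon.

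Genomic imprinting marks the maternal and paternal copies of a gene differently by DNA methylation at an imprinting control region. Primordial germ cells erase these marks after they reach the gonad, and in females the new, maternal marks are laid down only during oocyte growth after birth, so fetal oocytes in meiotic prophase are held to carry unmethylated imprinting control regions on both chromosomes. Many imprinted genes act on fetal growth, in the insulin-like growth factor pathway or in the cell cycle, and several are among the most abundant RNAs of fetal mesenchyme, liver or placenta.

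The libraries held 2048706 to 3674989 counts on genes, so that 1 count corresponded to 0.273 to 0.484 CPM, where CPM is the count scaled to library size with TMM factors. Of 10 oocyte markers, 9 had counts in every library, with a summed level of 10547 to 17522 CPM; the tenth, *Sycp3*, lies wholly inside another gene and had 0 counts throughout. Markers of other ovarian cells were low but present: the summed level of 12 pregranulosa and surface epithelium markers was 35.4 to 92.2 CPM, that of 7 stromal markers 69.7 to 363.8 CPM, that of 4 endothelial markers 1.94 to 81.5 CPM, that of 5 macrophage markers 0 to 19.4 CPM and that of 7 erythroid markers 0 to 1308 CPM. In RNA pooled from many cells, fewer cells of a type and less RNA per cell cannot be told apart.

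The first result concerns which imprinted genes the table can show at all. Reads were counted over the whole interval of a gene, introns included, and all 12922 genes that lie wholly inside other genes have 0 counts in all 13 libraries. Of the 32 imprinted genes, 4 lie wholly inside another gene: *Ndn* and *Magel2*, the Prader-Willi region genes for a growth suppressor and for a ubiquitin ligase partner, inside *Gm32061*, *Kcnq1ot1*, the long RNA that silences its domain in cis, inside *Kcnq1*, and *Nnat*, a small membrane proteolipid gene, inside *Blcap*. All 4 are paternally expressed and had 0 counts in every library. *Igf2*, the paternally expressed fetal growth factor, was the fifth gene at 0, and 99.98% of its interval is overlapped by *Gm49394* on the same strand, which also had 0 counts. These 5 zeros are therefore no measure of the RNA.

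A count at the 3′ end needs that end to be free of other genes. The last 500 bases were overlapped by at least 90% in 12 of the 32 genes and not overlapped at all in the other 20. The 12 were 9 of the 16 paternally expressed genes (*Igf2*, *Airn*, *Usp29*, *Mest*, *Snrpn*, *Ndn*, *Magel2*, *Kcnq1ot1* and *Nnat*), 2 of the 15 maternally expressed genes (*Copg2* and *Ube3a*) and *Gnas*. Over the whole table, 85.3% of the 16245 genes with such an overlapped end had 0 counts in all libraries, against 50.3% of the 37786 genes with an open end. Any sum over paternally expressed genes is thus missing more of its members than a sum over maternally expressed genes.

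**Figure D1:**
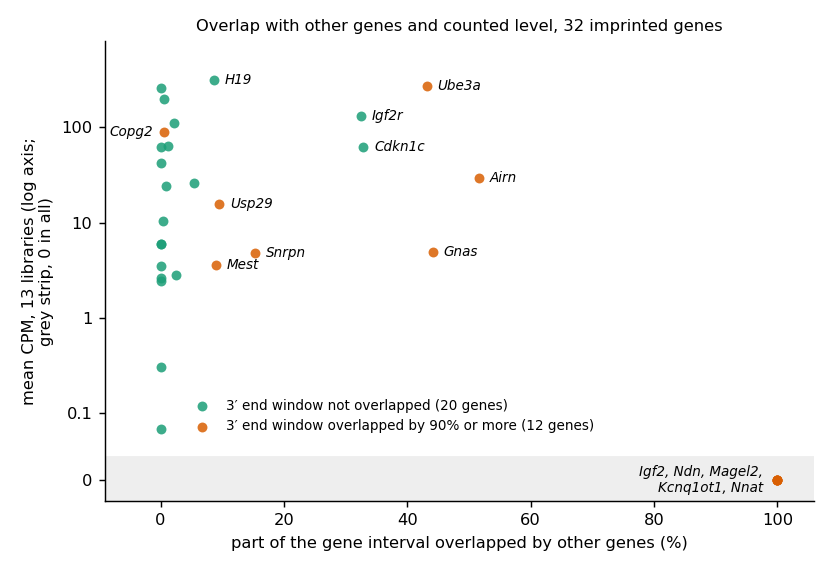
Mean CPM over 13 libraries (log axis, grey strip for genes at 0 in all libraries) against the percent of the gene interval overlapped by other genes, 1 point for each of the 32 imprinted genes, coloured by whether the last 500 bases are overlapped. The 5 genes at 0 sit at 99.98% or 100% overlap, while genes with no overlap range from 0.0673 CPM (*Phlda2*) to 260.2 CPM (*Dlk1*).

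Of the 27 genes with a count, 14 had a mean of at least 20 CPM over the 13 libraries, 9 maternally and 5 paternally expressed. Per exonic kilobase, the scale used here to compare genes, *H19* was highest at 128.5 CPM per kb, followed by *Dlk1* at 46.0, *Cdkn1c* at 30.4, *Copg2* at 17.48, *Zdbf2* at 15.9, *Igf2r* at 14.1 and *Ube3a* at 13.2 CPM per kb. Since a 3′ tag is counted once per transcript whatever its length, the order was also taken without length, and 8 of the 10 highest genes were shared by both orders. The other 13 genes with counts had means from 0.0673 CPM (*Phlda2*) to 15.9 CPM (*Usp29*), and 10 of them were tested, which together with the 14 gives 24 tested genes.

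**Figure D2:**
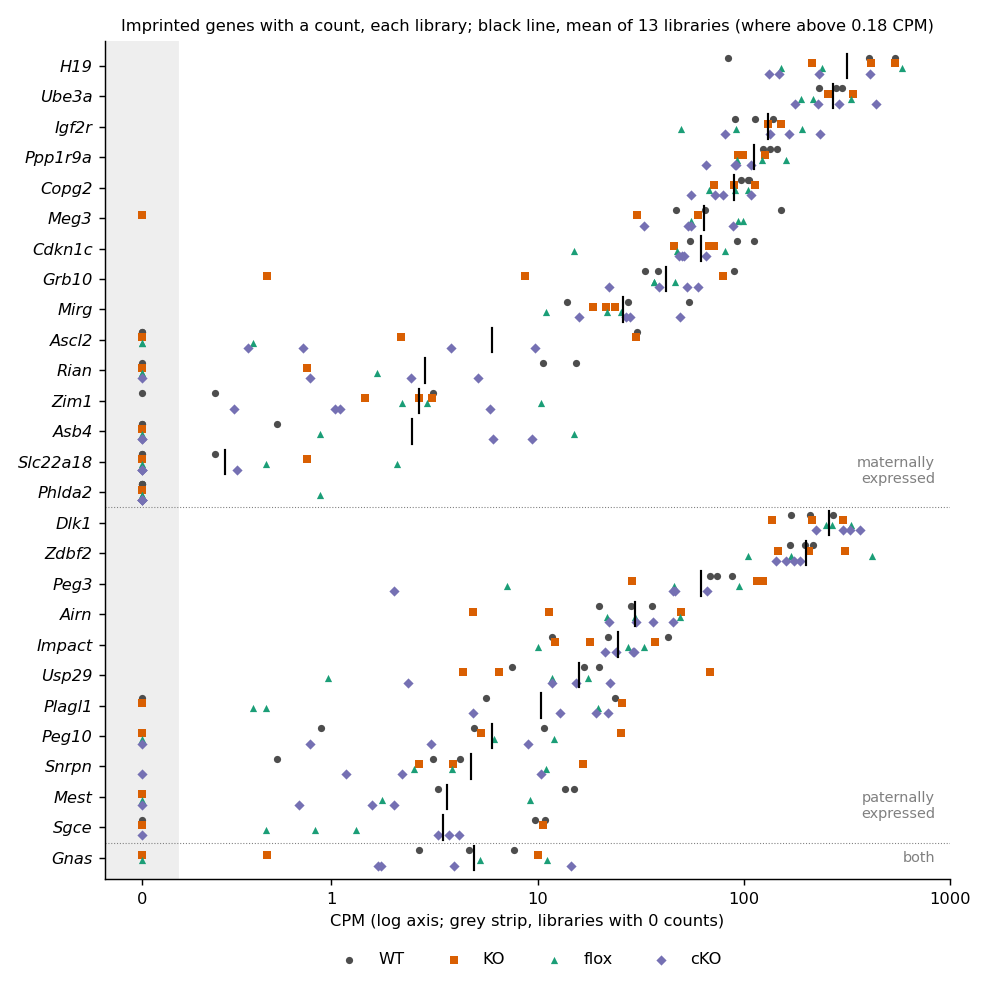
CPM of the 27 imprinted genes with a count, 1 point per library (log axis, libraries with 0 counts in the grey strip), grouped by parental class, with the mean of the 13 libraries as a black line. *H19* spans 83.9 to 585 CPM, *Meg3* has 0 counts in a single KO library, and the low genes have libraries at 0 in several groups.

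*H19* (ENSMUSG00000000031.16, chr7:142575529-142578143, minus strand; this and the other gene positions are on mm10), a long noncoding RNA expressed from the maternal chromosome and known for its high level in fetal mesoderm and endoderm, was at 405, 545 and 83.9 CPM in the WT libraries, 545, 416 and 215 in KO, 153, 239 and 585 in flox and 148, 134, 232 and 410.1 in cKO. Each group holds libraries with high and with low values, and the groups overlap. The highest library was 6.98 times the lowest, and the coefficient of variation (CV) of 55.5% was above that of 97.7% of the 650 tested genes with a mean level within 1.5 times its own. *H19* was counted in every library, with 307 to 1431 counts, and its 3′ end is open.

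*Cdkn1c* (ENSMUSG00000037664.13, chr7:143458339-143461050, minus strand), the maternally expressed inhibitor of cyclin-dependent kinases p57, was at 54.9, 93.05 and 113 CPM in the WT libraries, 68.2, 71.7 and 45.9 in KO, 15.05, 47.7 and 81.7 in flox and 48.5, 50.1, 51.2 and 65.7 in cKO. The 4 cKO libraries lay close together, whereas the flox libraries included the lowest value of all 13, and the groups overlap. Its neighbours in the *Kcnq1ot1* domain were at or near 0. *Phlda2*, a maternally expressed limiter of placental growth, had 2 counts in a single flox library. *Slc22a18*, a maternally expressed transporter gene, had 10 counts in all, spread over 5 libraries. The intervals of both overlap no other gene. *Ascl2*, a maternally expressed trophoblast transcription factor, was counted in 8 of 13 libraries with 0, 65 and 0 counts in the WT libraries, 79, 0 and 5 in KO, 1, 0 and 0 in flox and 29, 1, 2 and 11 in cKO. Its highest counts were in 1 WT and 1 KO library, beside libraries of the same groups at 0.

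The *Dlk1*-*Meg3* domain on chromosome 12 shows genes of opposite parental classes counted side by side. *Dlk1* (ENSMUSG00000040856.17, chr12:109452823-109463336, plus strand), the paternally expressed membrane ligand of the Notch family, lies upstream of *Meg3* (ENSMUSG00000021268.17, chr12:109541001-109571726, plus strand), a maternally expressed long noncoding RNA. *Rian* and *Mirg*, maternally expressed host RNAs of small nucleolar RNAs and microRNAs, follow downstream. The promoter windows of *Dlk1* and *Meg3* are shown because both genes are counted in the same libraries although their somatic alleles are opposite. They are RefSeq windows on GRCm38.p6, from 250 bases before to 50 bases after the start, at chr12:109452573-109452872, plus strand and at chr12:109540746-109541045, plus strand, written 5′ to 3′ on the gene's strand. Capitals mark TGCCGC or its reverse complement GCGGCA, the hexamer that ZFP57 binds when methylated.
Dlk1: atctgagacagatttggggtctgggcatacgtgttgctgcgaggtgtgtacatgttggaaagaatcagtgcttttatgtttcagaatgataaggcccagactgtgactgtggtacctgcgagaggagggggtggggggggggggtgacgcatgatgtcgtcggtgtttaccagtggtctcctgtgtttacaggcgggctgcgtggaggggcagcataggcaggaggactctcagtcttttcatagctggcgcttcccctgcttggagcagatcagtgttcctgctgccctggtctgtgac
Meg3: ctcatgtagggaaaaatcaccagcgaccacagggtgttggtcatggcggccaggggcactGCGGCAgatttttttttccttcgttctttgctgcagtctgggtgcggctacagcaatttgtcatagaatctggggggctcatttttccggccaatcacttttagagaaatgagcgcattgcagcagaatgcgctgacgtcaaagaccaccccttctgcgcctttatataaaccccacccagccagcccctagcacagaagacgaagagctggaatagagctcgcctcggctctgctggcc

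The *Meg3* window held 1 hexamer and 13 CpGs, the *Dlk1* window held no hexamer and 9 CpGs. *Dlk1* was at 170.4, 270.3 and 209 CPM in the WT libraries, 303, 216 and 137 in KO, 251, 269 and 334 in flox and 303, 224, 327 and 369 in cKO. It had 314 to 1062 counts, and its CV of 25.9% was near the median of 26.3% of genes of a similar level. *Meg3* was at 151, 46.8 and 65.03 CPM in the WT libraries, 60.2, 30.5 and 0 in KO, 99.9, 55.6 and 93.8 in flox and 55.6, 32.9, 53.7 and 88.96 in cKO. Its KO library at 0 counts, where 3 counts would have been 1.31 CPM, stands apart from the other 12 libraries at 63 to 342 counts, and the same library held 314 counts of *Dlk1*.

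In 12 of 13 libraries *Dlk1* and *Meg3* both had at least 10 counts, and *Dlk1* and *Mirg* did so in all 13. As tag counts not divided by length, *Dlk1* exceeded *Meg3* in 13 of 13 libraries, by 1.13 to 7.06 times with a median of 4.94 in the 12 libraries where the ratio exists. The order was the same per exonic kilobase, at 46.0 against 3.55 CPM per kb. *Mirg* was at 27.4, 54.2 and 13.9 CPM in the WT libraries, 18.7, 23.7 and 21.4 in KO, 25.5, 10.9 and 21.7 in flox and 15.8, 49.3, 28.1 and 26.8 in cKO, and the groups overlap. *Rian* was counted in 7 of 13 libraries with 24, 33 and 0 counts in the WT libraries, 2, 0 and 0 in KO, 4, 0 and 0 in flox and 0, 2, 14 and 7 in cKO. Most of its counts were in WT libraries, but 1 WT library had none.

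**Figure D3:**
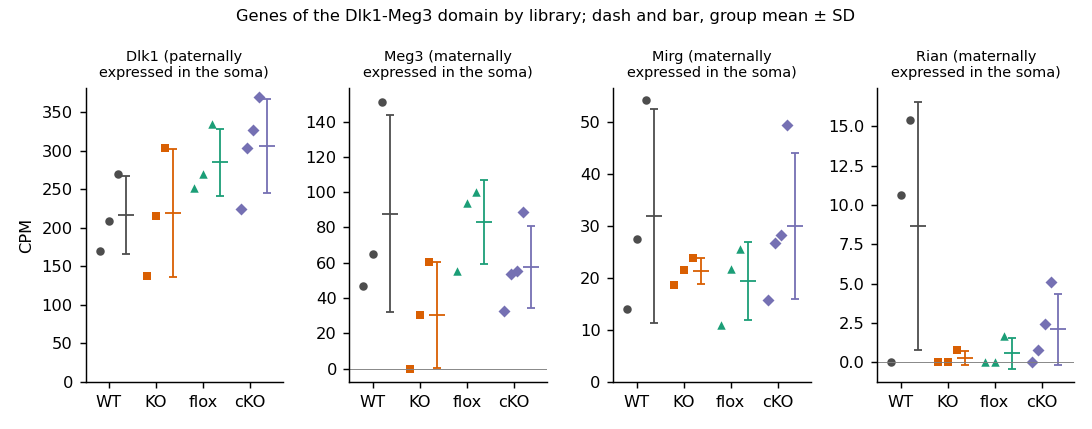
CPM (linear axes, separate for each gene) of *Dlk1*, *Meg3*, *Mirg* and *Rian* in each library of WT (n = 3), KO (n = 3), flox (n = 3) and cKO (n = 4), with the group mean ± SD. *Dlk1* is at 137 to 369 CPM in every library, and the *Meg3* libraries of KO reach 60.2 CPM at most while overlapping those of WT.

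On chromosome 17, *Igf2r* and *Airn* form the other pair of opposite classes with counts throughout. *Igf2r* (ENSMUSG00000023830.14, chr17:12682406-12769664, minus strand), the maternally expressed receptor that clears IGF2 to the lysosome, was at 113, 139 and 90.99 CPM in the WT libraries, 131, 131 and 152 in KO, 91.5, 192 and 49.8 in flox and 235, 134, 81.1 and 167 in cKO. *Airn* (ENSMUSG00000078247.4, chr17:12741311-12860136, plus strand), the paternally expressed antisense RNA that starts within *Igf2r*, was at 28.3, 36 and 19.9 CPM in the WT libraries, 49.5, 4.84 and 11.4 in KO, 21.7, 29.8 and 49.3 in flox and 22.2, 30.2, 45.3 and 36.1 in cKO. Both had at least 10 counts in 13 of 13 libraries, and the ratio of *Igf2r* to *Airn* counts ran from 1.01 to 27.1 with a median of 4.44. *Airn* is overlapped over 51.6% of its interval, and its 3′ end wholly, so its counts come from the parts of the interval that no other gene overlaps.

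In the *Peg3* domain on chromosome 7, *Peg3* (ENSMUSG00000002265.17, chr7:6703892-6730431, minus strand), a paternally expressed zinc finger gene, and *Usp29*, a paternally expressed ubiquitin protease gene, start in opposite directions from the same promoter, and 263 bases of their RefSeq windows are shared. *Zim1*, a maternally expressed zinc finger gene, lies downstream of *Peg3*. The windows of *Peg3* (chr7:6730370-6730669, minus strand) and *Zim1* (chr7:6696383-6696682, minus strand) are shown because the oppositely imprinted neighbours differ in level, with capitals as above. The *Zim1* window held 1 hexamer and 20 CpGs, the *Peg3* window held no hexamer and 13 CpGs.
Peg3: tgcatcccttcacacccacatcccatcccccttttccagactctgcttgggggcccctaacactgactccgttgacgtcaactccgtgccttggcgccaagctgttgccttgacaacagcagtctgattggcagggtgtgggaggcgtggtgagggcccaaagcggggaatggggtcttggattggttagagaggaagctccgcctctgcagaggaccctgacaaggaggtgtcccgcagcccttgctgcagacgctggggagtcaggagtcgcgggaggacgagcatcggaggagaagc
Zim1: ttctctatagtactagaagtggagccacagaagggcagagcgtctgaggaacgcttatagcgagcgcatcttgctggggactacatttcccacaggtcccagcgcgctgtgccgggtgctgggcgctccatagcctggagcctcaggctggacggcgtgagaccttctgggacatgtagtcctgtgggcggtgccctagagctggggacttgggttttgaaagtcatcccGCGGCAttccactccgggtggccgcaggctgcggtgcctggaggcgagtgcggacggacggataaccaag

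*Peg3* was at 73.9, 87.4 and 68.9 CPM in the WT libraries, 116, 28.6 and 125 in KO, 7.11, 45.9 and 94.7 in flox and 2.02, 66.6, 45.3 and 46.6 in cKO. The lowest values were in a cKO and a flox library, with 6 and 17 counts, and the highest library was 61.6 times the lowest. Its CV of 61.0% was above that of 94.3% of the 2416 genes of a similar level. *Usp29* had 38, 16 and 73 counts in the WT libraries, 17, 9 and 158 in KO, 28, 40 and 2 in flox and 7, 30, 42 and 65 in cKO, and its highest library was in KO. *Zim1* had 0 to 25 counts and was not tested. *Peg3* and *Zim1* were both counted in 12 libraries, but both reached 10 counts in only 2.

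*Copg2* (ENSMUSG00000025607.15, chr6:30747554-30896794, minus strand), a coat protein subunit of vesicle transport, was at 97.4, 107 and 105 CPM in the WT libraries, 114, 89.6 and 71.7 in KO, 105, 68.3 and 90.9 in flox and 55.6, 108, 79.7 and 72.3 in cKO. *Ppp1r9a* (ENSMUSG00000032827.15, chr6:4902917-5165661, plus strand), the actin-binding scaffold neurabin, was at 145, 134 and 124 CPM in the WT libraries, 127, 98.8 and 93.9 in KO, 92.8, 123 and 161 in flox and 109, 92.04, 91.4 and 65.7 in cKO. *Ube3a* (ENSMUSG00000025326.12, chr7:59228750-59311536, plus strand), the ubiquitin ligase of Angelman syndrome, whose imprint is known from neurons, was at 232, 279.6 and 299 CPM in the WT libraries, 262, 256 and 341 in KO, 189, 217 and 334 in flox and 441, 292, 178 and 229 in cKO. Their CVs were 20.6%, 23.5% and 26.1%, next to 25.9% for *Dlk1*. The 3′ ends of *Copg2* and *Ube3a* are wholly overlapped, so their counts come from the parts of the interval that no other gene overlaps. The CV of *Ube3a* was near the median of 26.02% of genes of a similar level, and that of *Copg2* was above the CV of only 2.14% of the 2195 genes of a similar level.

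*Mest*, a paternally expressed hydrolase gene, shares its overlapped 3′ end with *Copg2*, and *Snrpn*, a paternally expressed spliceosome protein gene, lies in the *Ube3a* domain. *Snrpn* had 0 to 38 counts, and its 3′ end is overlapped. At the *Peg10* domain on chromosome 6, *Peg10*, a paternally expressed gene derived from a retrotransposon, had 0 to 67 counts, *Sgce*, the paternally expressed sarcoglycan epsilon gene next to it, had 0 to 40, and *Asb4*, a maternally expressed gene of the ubiquitin pathway, had 0 to 31 and was counted in 5 libraries. All 3 have open 3′ ends and libraries at 0 in at least 3 of the 4 groups.

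*Zdbf2* (ENSMUSG00000027520.15, chr1:63273265-63314576, plus strand), a paternally expressed zinc finger gene known for its role in postnatal growth, was at 167, 199 and 217 CPM in the WT libraries, 309.7, 147 and 209 in KO, 104, 170.2 and 420.0 in flox and 188, 144, 162 and 175 in cKO. The flox libraries held both the lowest and the highest value. *Grb10* (ENSMUSG00000020176.17, chr11:11930508-12038683, minus strand), an adaptor that inhibits insulin and growth factor receptors and is maternally expressed outside neurons, was at 90.3, 33.2 and 38.5 CPM in the WT libraries, 79.6, 0.484 and 8.74 in KO, 36.8, 36.8 and 46.4 in flox and 60.3, 53.3, 38.7 and 22.2 in cKO. A KO library with 1 count and another with 20 stand below the other 11 libraries at 64 to 209 counts. *Impact* (ENSMUSG00000024423.6, chr18:12955852-12992950, plus strand), a paternally expressed regulator of translation, was at 42.9, 21.98 and 11.7 CPM in the WT libraries, 12.2, 17.9 and 37.1 in KO, 33.02, 10.1 and 27.5 in flox and 21.2, 28.98, 29.2 and 23.98 in cKO. *Plagl1*, a paternally expressed zinc finger transcription factor, had 0 to 60 counts with 3 libraries at 0, and *Gnas*, the locus of the stimulatory G protein alpha subunit, had 0 to 40 counts with its 3′ end overlapped.

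Among the 14 genes of at least 20 CPM, the CV between libraries ran from 20.6% to 61.0%, and 7 of the 14 had a higher CV than the median gene of a similar level. High spread was seen in genes of both classes (the maternally expressed *H19*, *Meg3* and *Grb10* and the paternally expressed *Peg3* and *Zdbf2*), as was low spread (*Copg2* and *Ppp1r9a*, and *Impact*). Since *H19*, *Dlk1* and *Meg3* are known as abundant RNAs of fetal stroma, the levels were set beside the stromal markers of each library. Across the 13 libraries, 14 correlations with the summed stromal markers gave Pearson r from -0.69 to 0.57, with 2 at an unadjusted permutation p under 0.05 and 0 after Benjamini-Hochberg adjustment over the 14. *Copg2* had r = -0.69 (permutation p = 0.0116, adjusted 0.162, Spearman rho = -0.62, p = 0.0280), and r = -0.63 without the 2 libraries farthest from the median of the stromal sum, with -0.39 within the constitutive cross (exact permutation p = 0.444) and -0.70 within the conditional cross (exact permutation p = 0.0829). *Dlk1* had r = 0.57 (permutation p = 0.0377, adjusted 0.264, rho = 0.48, p = 0.0977), but r was 0.39 without those 2 libraries, -0.76 within the constitutive cross (exact permutation p = 0.103) and 0.75 within the conditional cross (exact permutation p = 0.0548). *H19* had r = -0.04 (permutation p = 0.909, adjusted 0.928, rho = -0.18, p = 0.555), r = -0.16 without the 2 libraries, -0.74 within the constitutive cross (exact permutation p = 0.0639) and 0.59 within the conditional cross (exact permutation p = 0.184). *Meg3* had r = 0.21 (permutation p = 0.478, adjusted 0.919, rho = 0.28, p = 0.356), r = 0.16 without the 2 libraries, 0.23 within the constitutive cross (exact permutation p = 0.728) and 0.21 within the conditional cross (exact permutation p = 0.653). For *H19* and *Dlk1* the sign thus differed between the crosses, and the part of stromal cells in these levels was not tested beyond these correlations.

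The maternally expressed genes together took 0.0795% to 0.150% of all counts in a library, and the paternally expressed genes 0.0418% to 0.0962%. In CPM, the maternal sum was 1247 ± 280.6 in WT, 1171 ± 246.7 in KO, 1099.9 ± 342.3 in flox and 1035 ± 167.4 in cKO (mean ± SD, n = 3, 3, 3 and 4). The paternal sum was 592 ± 48.7 in WT, 631 ± 203.8 in KO, 656 ± 267.5 in flox and 611 ± 81.6 in cKO. The maternal sum was the larger in 13 of 13 libraries, by 0.37 to 1.39 on the log2 scale.

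With overlap taken into account, the maternal sum was the larger in 12 of 13 libraries, the exception being cKO replicate 3 at -0.01 on the log2 scale. Over the 13 maternally and 7 paternally expressed genes with an open 3′ end, the maternal sum was 528.7 to 1091 CPM and the paternal sum 397 to 889 CPM. The log2 ratio then ran from -0.01 to 1.03 with a median of 0.41. *H19* alone gave 83.9 to 585 CPM of the maternal sum, and the order rested on it in most libraries. In KO replicate 1, *H19* gave 545 of 1064 CPM, against a paternal sum of 777 CPM. In WT replicate 1, at 405 of 1001 CPM against 489, the rest of the maternal sum was still the larger. By number, 10 of the 13 open maternal genes and 7 of the 7 open paternal genes were tested, and 7 and 4 of them had a mean of at least 20 CPM. The median of their mean levels was 25.98 CPM for the maternal and 24.5 CPM for the paternal genes, so no parental class was absent. In each library 8 to 12 of the 13 open maternal genes and 5 to 7 of the 7 open paternal genes had a count.

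**Figure D4:**
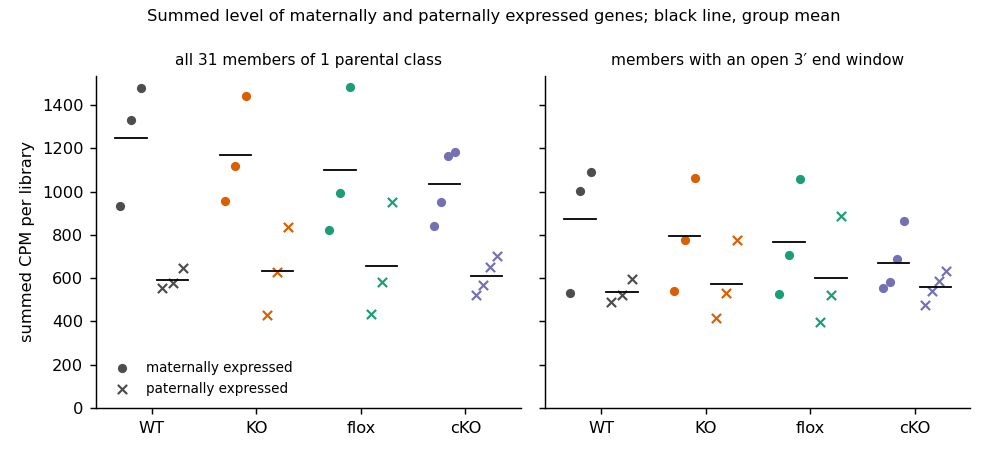
Summed CPM per library of the maternally expressed genes (circles) and the paternally expressed genes (crosses) in the 4 groups, for all 31 genes of a single class on the left and for the 20 genes with an open 3′ end on the right, with group means as black lines. The maternal sums are above the paternal sums in the left panel, and the ranges draw together in the right panel, where *H19* alone accounts for 83.9 to 585 CPM of the maternal sum.

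Loss of GR was compared within each cross. In KO against WT, 0 of 24 tested imprinted genes were called by edgeR's quasi-likelihood test at an adjusted p of 0.05 or less, as were 0 of all 13086 genes (0%), and DESeq2 and voom called 0 of the 24 as well, while DESeq2 called 10 of all genes. At an unadjusted p under 0.05, 1 of the 24 passed, against 759 of the 13086 genes (5.80%). The fitted log2 fold changes were above 0 for 10 and below 0 for 14 of the 24, with a median of -0.19, beside -0.03 over all genes tested. That direction turned without KO replicate 2, where the members' median was 0.03, with 14 of 25 tested above and 11 below 0. Without each other WT or KO library it stayed below 0, at -0.34 to -0.13. Without KO replicate 1 it was -0.34, and 5 of 25 members had an unadjusted p under 0.05, beside 940 of 14224 genes. That number was 3 of 25 without WT replicate 2, beside 722 of 14238 genes, and 3 of 24 with voom, beside 718 of 13086. It was 2 of 25 without KO replicate 3, beside 723 of 14310 genes. In 1 of the 24 the KO and WT libraries did not overlap, where 9.41% of all genes tested had groups that do not overlap.

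That gene was *Mest* (ENSMUSG00000051855.15, chr6:30723547-30748465, plus strand), with 34, 7 and 50 counts in the WT libraries, 0, 0 and 0 in KO, 0, 4 and 19 in flox and 6, 4, 0 and 2 in cKO. The KO libraries were all at 0, below each WT library, and the exact two-sided permutation p of 0.1 is the smallest that 3 against 3 libraries allow. The floor of 3 counts per library was 1.30 CPM on average in KO. The WT mean of 10.7 CPM was 8.19 times that floor, and 6.50 to 11.0 times when a WT library was left out. That floor covers counting error alone and not the spread between embryos, so these ratios are no lower bound on the difference. The fitted log2 fold change had a 95% interval of -13.5 to -2.05. The fitted change passed an unadjusted p under 0.05 with an adjusted p of 0.85 by edgeR, and the adjusted p ran from 0.258 to 1 over the alternatives. Reads in the overlapped 3′ end of *Mest* would not have been counted. Markers of other cell types also differed in level. The 4 endothelial markers summed to 1.94 to 25.5 CPM in KO, against 30.98 to 39.7 CPM in WT. Of these, *Pecam1* was the 1 tested, with a log2 fold change of -1.39 and an adjusted p of 0.85 by edgeR. *Tie1* had 0 counts in KO and at most 1 in a WT library. The 5 macrophage markers summed to 7.86 to 19.4 CPM in KO and 0.468 to 2.46 in WT, and 0 of them were tested. In KO, *Csf1r* and *Cd68* had 0 counts, and *C1qa*, *C1qb* and *Adgre1* reached 17, 22 and 18 counts at most. The other lists overlapped. The 7 stromal markers summed to 69.7 to 144 CPM in KO and 118 to 156 in WT. The 12 pregranulosa and surface epithelium markers summed to 35.4 to 92.2 CPM in KO and 45.1 to 69.1 in WT. Of the 10 tested, 5 had a log2 fold change above 0 and 5 below. *Bmp2* had 0 counts in KO and 0 to 51 in WT (unadjusted p = 0.0238, adjusted p = 0.85 by edgeR). The 7 erythroid markers summed to 0 to 152 CPM in KO and 88.8 to 239 in WT. The part of other cell types in the *Mest* counts was not tested.

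None of the other 23 tested members had separate KO and WT libraries. *Meg3* came nearest at levels that are well counted, with 30.2 ± 30.1 CPM in KO and 87.7 ± 55.9 in WT (mean ± SD over 3 libraries). Its log2 fold change was -1.53 ± 0.79 (SE), the 95% interval -3.16 to 0.10 and the adjusted p 0.86 by edgeR, and the exact permutation p was 0.2. Over the alternatives the unadjusted p value of edgeR, DESeq2 or voom lay between 0.00403 and 0.304 and the adjusted p between 0.728 and 1. Leaving out 1 library moved the log2 fold change over -2.52 to -0.88, with -2.52 without KO replicate 1, -0.94 without KO replicate 3, at 0 counts, and -0.88 without WT replicate 1, the highest. *Grb10* was at 29.6 ± 43.5 CPM in KO and 54 ± 31.5 in WT, a log2 fold change of -0.86 ± 0.85. It was -3.50 without KO replicate 1, -0.28 without KO replicate 2, -0.42 without KO replicate 3 and -0.27 without WT replicate 1, and its unadjusted p value lay between 0.000675 and 0.776 over the alternatives, with an adjusted p of at least 0.571. For *Dlk1*, *Ube3a*, *Zdbf2* and *Copg2*, with high counts, the 95% intervals of the log2 fold change were narrower, -0.64 to 0.66, -0.59 to 0.76, -0.61 to 0.99 and -0.93 to 0.60. The counts of *Ube3a* and *Copg2* leave out their overlapped 3′ ends. *H19* was at 392 ± 166 CPM in KO and 344 ± 236 in WT, with an interval of -0.91 to 1.29. Changes of 2-fold in either direction are thus outside the interval for *Dlk1*, *Ube3a*, *Copg2* and, only narrowly for a rise, *Zdbf2*. For *H19* a 2-fold rise is inside the interval and a 2-fold fall outside it.

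In cKO against flox, 0 of the 24 genes were called by edgeR, as were 0 of all 13086 genes (0%), and 0 of the 24 by DESeq2 or voom, while DESeq2 called 5 of all genes. At an unadjusted p under 0.05, 0 of the 24 passed, where 417 of the 13086 genes did (3.19%), and in 0 of the 24 were the groups separate, beside 4.91% of all genes tested. The log2 fold changes were above 0 for 13 and below 0 for 11 genes, with a median of 0.06, beside -0.0046 over all genes. That direction also turned with single libraries. The members' median was 0.28 without flox replicate 3, with 19 above and 6 below 0. It was -0.13, -0.02 and -0.04 without flox replicate 1, flox replicate 2 and cKO replicate 3. Without flox replicate 1, 1 of 24 members passed an unadjusted p under 0.05, beside 489 of 14258 genes. Without flox replicate 2, 1 of 25 members did, beside 550 of 14201 genes. Among the 14 genes of at least 20 CPM the lowest p was 0.136, for *Ppp1r9a*, at 89.5 ± 17.8 CPM in cKO (n = 4) and 125 ± 34.2 in flox (n = 3), a log2 fold change of -0.49 ± 0.32 with an interval of -1.14 to 0.17. *Zdbf2* was at 167 ± 18.97 CPM in cKO and 232 ± 166 in flox, and *Igf2r* at 154 ± 64.5 and 111 ± 72.9 CPM. The interval of *Dlk1* was -0.51 to 0.71 and that of *Ube3a* -0.43 to 0.84. For *Mest*, cKO libraries reached 6 counts at most and flox libraries 19. The 7 erythroid markers summed to 281 to 1308 CPM in flox and 77.2 to 193 CPM in cKO. Of these, *Hbb-y*, *Hba-x* and *Alas2* were at 0 in every library. The 3 tested, *Hba-a1*, *Hbb-bs* and *Hbb-bt*, had log2 fold changes of -2.40, -1.96 and -1.70. Each had an unadjusted p under 0.05 and an adjusted p of 0.999 by edgeR. The pregranulosa and surface epithelium, stromal, endothelial and macrophage sums overlapped between flox and cKO. The part of other cell types in these values was not tested.

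**Figure D5:**
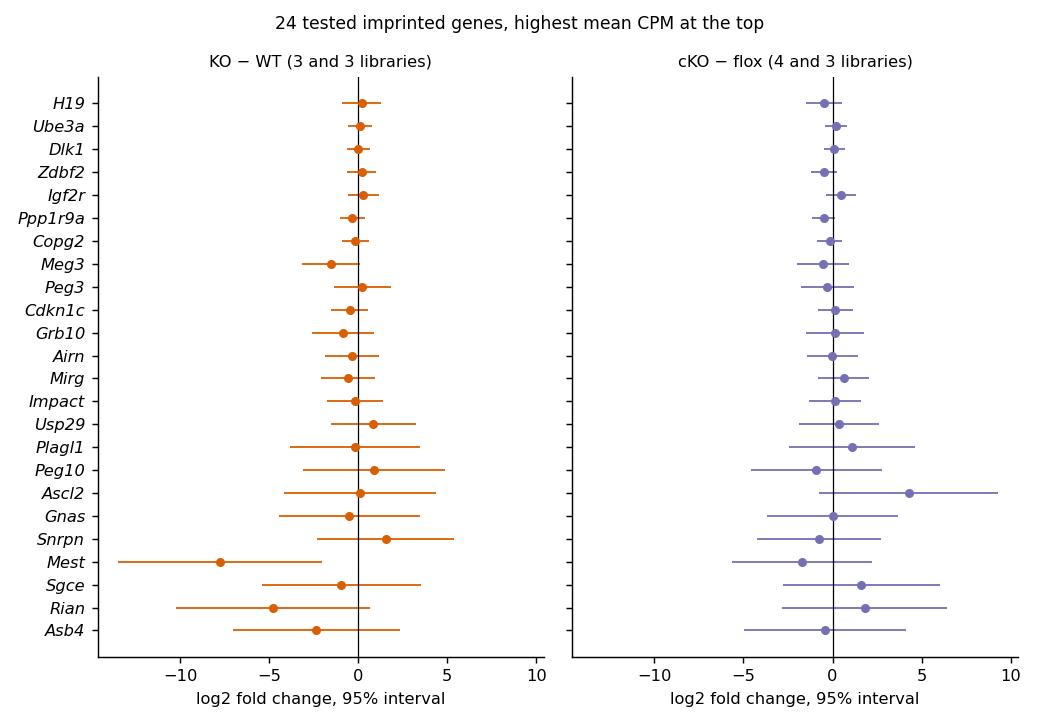
Log2 fold change with its 95% interval for the 24 tested imprinted genes, KO minus WT on the left and cKO minus flox on the right, ordered by mean CPM from the top. Intervals widen towards the low genes at the bottom, and *Mest* in KO is the gene whose interval leaves out 0. All its KO libraries are at 0, so the size of its fitted value is not a measured ratio.

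The difference of the effects, cKO minus flox less KO minus WT, was called for 0 of 24 genes and 0 of all 13086 genes (0%), and 0 of the 24 passed an unadjusted p under 0.05, beside 4.37% of all genes. For *Meg3* the difference was 1.01 ± 1.06 on the log2 scale with an interval of -1.18 to 3.20, and for *Mest* the adjusted p was 1.00 by edgeR. Between the crosses, with cKO and flox averaged against KO and WT, 0 of the 24 were called, beside 1 of the 13086 genes (0.00764%), and 2 passed an unadjusted p under 0.05, beside 5.61%. These were the low genes *Asb4*, with 2 counts in all 6 libraries of the constitutive cross together and 0 to 31 in the conditional cross, and *Ascl2*, with 0 to 79 counts in the constitutive and 0 to 29 in the conditional cross. Their adjusted p was 0.81 and 0.84 by edgeR. *Dlk1* was 0.44 higher in the conditional cross on the log2 scale (95% interval -0.0079 to 0.89, adjusted p = 0.89 by edgeR). Fitted differences of other cell types' markers in the same comparison were mostly positive without being called. Above 0 were 4 of 5 stromal, 1 of 1 endothelial, 3 of 3 erythroid and 6 of 10 pregranulosa and surface epithelium markers tested. Among them were *Col1a1* at 1.98, *Pecam1* at 1.59 and *Hbb-bs* at 2.01, each at an unadjusted p under 0.05. Their adjusted p was 0.21, 0.78 and 0.63 by edgeR. Of the 10 pregranulosa and surface epithelium markers, 0 had an unadjusted p under 0.05. The part of other cell types in the *Dlk1* difference was not tested.

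Of 38 further imprinted genes, 22 were tested, 9 had 0 counts in all libraries, and 0 were called in either comparison. *Nap1l4*, a histone chaperone gene, was at 431 ± 125.3 CPM over the 13 libraries, *Inpp5f*, a phosphoinositide phosphatase gene, at 77.2 ± 22.1 and *Trappc9*, a gene of vesicle transport, at 75.5 ± 24.3. The 3′ end of *Trappc9* is wholly overlapped. In KO against WT 1 of the 22 had an unadjusted p under 0.05, *Kcnq1*, a potassium channel gene, with 2 to 61 counts in WT and 0 in KO (adjusted p = 0.85 by edgeR), and in cKO against flox 1 of the 22 did, *Osbpl5*, a lipid transfer gene, with 0 to 32 counts in flox and 0 in cKO (adjusted p = 0.999 by edgeR). *Kcnq1* was the gene that contains *Kcnq1ot1*. The median log2 fold change of the 22 was -0.18 in KO and -0.15 in cKO.

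The enzymes that act on imprints were read in the same way. Of the genes for erasure, the dioxygenases *Tet3* at 133 ± 41.9, *Tet2* at 43.2 ± 25.4 and *Tet1* at 15.5 ± 10.9 CPM (mean ± SD, n = 13) were counted in every library, and 0 of 4 genes passed an unadjusted p under 0.05 in either comparison. For maintenance, *Dppa3*, which protects methylation in the zygote, was at 402 ± 196.0 CPM, *Trim28*, the corepressor that ZFP57 recruits, at 324 ± 70.4 and *Ctcf*, the insulator protein gene, at 194 ± 66.1. *Zfp57* itself was at 18.5 ± 17.8 CPM. Of these 7 genes, *Uhrf1*, which guides DNMT1 to hemimethylated DNA, passed an unadjusted p under 0.05 in KO (109 ± 10.9 CPM against 57.9 ± 8.75 in WT, adjusted p = 0.85 by edgeR), and *Trim28* did so in cKO (281 ± 63.0 against 408 ± 79.1 CPM in flox, adjusted p = 0.999), and neither was called. For establishment, *Kdm1b*, the histone demethylase needed for maternal imprints, was at 429.8 ± 244.7 CPM, *Dnmt3a* at 96.5 ± 33.7 and *Dnmt3b* at 28.1 ± 19.9, while *Dnmt3l*, the cofactor of de novo methylation in growing oocytes, had 0 to 14 counts. The 3′ end of *Kdm1b* is wholly overlapped, so its level is not on the same footing as those of *Dnmt3a* and *Dnmt3b*, whose ends are open.

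RefSeq promoter windows were used for 27 of the 32 genes, and windows of members on chromosome 18, where *Impact* lies, were left out. The windows of *Plagl1*, *Mest* and *Mirg* belong to starts 30330, 9959 and 5217 bases from the start of the counted interval. The hexamer TGCCGC, on either strand, was in 6 of the 27 windows (22.2%), beside 13% of all 20545 windows of the same length, in *Copg2*, *Grb10*, *Meg3*, *Zim1*, *Nnat* and *Plagl1*. The windows held a median of 13 CpGs, beside 11 over all windows. Maternally expressed genes had a median of 20 CpGs and paternally expressed genes of 10. The 11 genes of at least 20 CPM with a window held a median of 13 CpGs, and the 7 genes under 20 CPM with an open 3′ end held a median of 20.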

How the data were processed

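Female germ cells of E17.5 embryos were profiled by 3′ Tag-Seq (QuantSeq FWD kit, Illumina) in 13 libraries. The deposited values are raw counts per gene, which the authors made with STAR 2.6.0 on mm10 and featureCounts 1.6.3; the use of strand and the annotation release are not given in the sources used here. Molecular identifiers are not described, so the floor of 3 counts per library reflects counting error alone. Interval lengths equal end minus start plus 1 in all 55335 rows. Symbols were taken from the reference annotation for 54587 genes by identifier and version and 567 by identifier, and 181 had none.

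Genes were filtered with edgeR 4.0.16 (minimum count 10, minimum total 15), scaled by TMM and fitted with the quasi-likelihood test over 13086 genes, 13 libraries and 4 group means, with Benjamini-Hochberg adjustment. The prior count of log2 CPM was 2. Alternatives were DESeq2 1.42.0, limma 3.58.1 (voom), other scalings and filters, a replicate block and leaving out each library. The fit was tested on simulated data. The deposited tables of the authors' own comparisons, which hold fold changes and p-values, were not used.

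The members and lists were chosen with earlier results of these data known. Every member is named. Values in every library are given for members of at least 20 CPM, for those with an unadjusted p under 0.05 within a cross, and for *H19*, *Igf2*, *Meg3*, *Dlk1* and *Cdkn1c*. Of each other list except the cell type markers, the 3 highest genes and those with such a p are named. Markers with such a p were added after their values were seen. *Zfp57* and *Dnmt3l*, and the counts per library of *Ascl2*, *Rian* and *Usp29*, were added after their values were seen. Replicate libraries differed by more than sampling noise, and each is a separate embryo.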

Additional observations from a re-analysis of the deposited data

Results flagged for a closer look

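*Cdkn1c* was at 65.7 CPM in 1 cKO library, while the other 3 cKO libraries were at 48.5, 50.1 and 51.2 CPM, so that the gap to the nearest library took up most of the group's range. Of 24 imprinted genes examined in this way in the cKO libraries, 1 stood out, and chance gives about 1 in 20. The value lies within the range of the WT and flox libraries.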

How the results depend on the processing

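The 24 tested imprinted genes had 0 calls in each comparison within the crosses under every alternative run with edgeR, DESeq2 or voom. Of their log2 fold changes under settings that keep all libraries, 188 kept their sign in KO against WT and 10 turned, and 189 kept it in cKO against flox and 9 turned. In KO against WT the signs turned for *Peg3* with voom and sample weights (-0.08), *Usp29* with voom (-0.21) and with weights (-0.44), *Peg10* with voom (-0.31), *Ascl2* with the replicate block (-0.67) and *Dlk1*, near 0 throughout, with upper-quartile scaling, with voom and with at least 10 counts in every library (-0.01 each), with the compared groups alone (-0.0018) and with the replicate block (-8.2e-06). In cKO against flox they turned for *Airn* with voom (0.05), weights (0.0076), no filter (0.0094) and the compared groups alone (0.0014), for *Grb10* with weights (-0.009), for *Gnas* with upper-quartile scaling (-0.02) and, with the replicate block, for *Usp29* (-0.55), *Sgce* (-0.76) and *Dlk1* (-0.0041). The cause was not tested.
Leaving out 1 library at a time moved these log2 fold changes across 0 in KO against WT, over the ranges -1.77 to 0.12 (*Airn*), -3.14 to 7.79 (*Ascl2*), -0.29 to 0.26 (*Dlk1*), -4.17 to 0.09 (*Gnas*), -0.28 to 0.70 (*H19*), -0.76 to 0.42 (*Impact*), -0.94 to 0.06 (*Mirg*), -1.04 to 1.81 (*Peg10*), -0.09 to 0.65 (*Peg3*), -7.64 to 1.63 (*Plagl1*), -0.06 to 0.17 (*Ube3a*), -1.43 to 1.36 (*Usp29*), -0.12 to 0.42 (*Zdbf2*).
Leaving out 1 library at a time moved these log2 fold changes across 0 in cKO against flox, over the ranges -0.24 to 0.38 (*Airn*), -1.03 to 3.01 (*Asb4*), -0.27 to 0.78 (*Cdkn1c*), -1.15 to 1.05 (*Gnas*), -0.07 to 0.35 (*Grb10*), -0.92 to 0.23 (*H19*), -0.23 to 0.46 (*Impact*), -2.30 to 0.28 (*Mest*), -2.19 to 0.06 (*Peg10*), -0.82 to 0.59 (*Peg3*), -2.31 to 0.10 (*Snrpn*), -0.09 to 0.49 (*Ube3a*), -0.17 to 1.02 (*Usp29*), -0.82 to 0.28 (*Zdbf2*).
Over all genes, DESeq2 called 10 genes in KO against WT, 5 in cKO against flox, 4 for the difference of the effects and 33 between the crosses, and edgeR without a filter called 15, 11, 8 and 35. Leaving out 1 library gave 0 to 2 calls in KO against WT, with 2 without WT replicate 3, and 1 to 11 between the crosses, with 11 without WT replicate 3 and 4 without KO replicate 3; requiring 10 counts in every library gave 0 between the crosses. The alternatives for the crosses were chosen after seeing the data. The labels do not say whether replicate numbers pair the libraries. Deviations of same-numbered libraries correlated at -0.0188, -0.00977 and -0.0231 in WT and KO and at 0.0634, 0.0396 and 0.00106 in flox and cKO. Not every library correlated best with its own number, but with so few libraries per group these correlations cannot decide on a pairing. With the replicate block the members' median log2 fold change was -0.35 in KO against WT and -0.08 in cKO against flox, where 10 were above and 14 below 0, and 0 genes were called in either comparison, and 554 and 361 had an unadjusted p under 0.05. At 2048706 to 3674989 counts per library, 1 count is up to 0.484 CPM, which limits what can be said of the 13 imprinted genes under 20 CPM.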
